A study of Homo sapiens with 6 samples.

Results

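The phase II conjugation enzymes of LM3 cells, an established hepatocellular carcinoma (HCC) line, were taken as every row of the gene table named for a UDP-glucuronosyltransferase (UGT), a cytosolic or microsomal glutathione S-transferase (GST, MGST), a cytosolic sulfotransferase (SULT) or an arylamine N-acetyltransferase (NAT), with hyphenated read-through rows and names ending like a pseudogene left out. This gave 44 of 33007 genes. Because GSTP1 ends in the letters of a pseudogene name, the same step dropped it, and its values are given separately. RNA-seq compared 3 vector control samples with 3 samples carrying a stable ZNF706 knockdown, made by lentiviral delivery of a short hairpin RNA. All 6 samples are labelled wild type in genotype, and the methods describe selection of lentivirus-infected cells with puromycin. Total counts were 62684076, 64713764 and 63054445 in control 1 to 3 and 68548419, 65861994 and 69057423 in knockdown 1 to 3. Nothing in the labels says that the samples of a group came from separate cultures, so the p-values measure only the spread between these samples, which may be technical.

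Phase II enzymes attach a polar group to drugs, dietary compounds, bilirubin, steroids and lipid peroxidation products, which can then be pumped out of the cell. UGTs transfer glucuronic acid from UDP-glucuronic acid in the endoplasmic reticulum, GSTs and MGSTs transfer glutathione, SULTs transfer sulfate from the donor PAPS, and NATs transfer acetyl from acetyl-CoA. Liver is the classical site of these reactions, and the mature hepatocyte carries high amounts of many UGT2B, GSTA and SULT enzymes.

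ZNF706 itself was measured first. Its level in CPM, counts scaled to library size after TMM normalization, was 51.9, 55.1 and 54.7 in the controls and 33.5, 30.8 and 32.8 in the knockdown samples. The groups did not overlap, and the fitted log2 fold change was -0.73 with a standard error (SE) of 0.050 (adjusted p = 3.7e-05, edgeR's quasi-likelihood test, Benjamini-Hochberg over all genes tested). The identity of the cells was checked against hepatocyte markers. The epithelial keratins KRT18 and KRT8 were abundant, with mean FPKM, the fragments scaled to gene length and library size, of 271 and 193 in the controls and 261 and 200 in the knockdown samples. The defining secretory markers were low, with ALB at 2.63 and 1.71, AFP at 0.787 and 0.507 and TTR at 0.0400 and 0.0400 FPKM, and the hepatocyte regulator HNF4A stood at 0.133 and 0.0600 FPKM. The line thus had little transcript for the markers that define a mature hepatocyte in either group.

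Most of the conjugation transcripts in these cells belonged to the glutathione transferases. Of the 44 enzymes, 6 had no count in any sample (UGT1A3, UGT1A10, UGT3A1, GSTA1, GSTT4 and NAT2), 15 had counts too low to be tested, and 23 were tested. A mean of at least 1 FPKM over the 6 samples was reached by 14. GSTs and MGSTs together held 91.3% of the members' summed FPKM, the 3 MGSTs alone 50.2%, the SULTs 7.46%, the UGTs 0.673% and the NATs 0.607%. These shares depend on the gene lengths behind the FPKM, and by counts the MGST part was larger. In control 1, MGST1 had 23454 and MGST3 9696 of the members' 48615 counts. The summed FPKM of all members was 142, 142 and 142 in the controls and 135, 144 and 148 in the knockdown samples, so the groups overlapped and the total stayed near the same level in all 6.

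ZNF706 knockdown gave calls in both directions among these enzymes. At an adjusted p below 0.05 in edgeR's quasi-likelihood test, 3 of the 23 tested were called, which is 13.04%, where 22.8% of all 18390 tested genes were called. GSTM4 rose (1 member, with a background of 10.4% for rises), and MGST3 and UGT1A7 fell (2 members, with a background of 12.4% for falls). The median log2 fold change was 0.029 over the members tested and 0.0095 over all genes tested, with 13 members above and 10 below 0. The members' median turned negative without control 2 (-0.017), knockdown 1 (-0.050) or knockdown 3 (-0.0093). In CPM, the values of the groups did not overlap for 5 of 23 (21.7%), namely GSTM4 and GSTT2 above and MGST3, UGT1A7 and UGT1A1 below the controls, against 39.4% of all genes tested. By the criteria of the study, an unadjusted p below 0.05 and a log2 change of 0.3 or more in either direction, applied here to the edgeR fit where the study used DESeq2, 4 members passed (17.4%, against 15.5% of all genes tested). The 4 were the 3 called by adjusted p and UGT1A1, which passed the filter on low counts through the controls alone and is also among the 5 whose groups did not overlap. Among all genes, 1906 calls were higher and 2286 lower after TMM scaling. Scaling by library size alone gave 2742 higher and 1518 lower, and limma on log2(FPKM + 0.1) gave 2279 higher and 1539 lower. That limma fit, on genes with a mean of at least 1 FPKM, called 3818 of 11399 genes. Of the 14 members in it, 4 were called higher and 1 lower. In bulk RNA, fewer cells carrying a transcript and less of it per cell cannot be told apart.

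**Figure D1:**
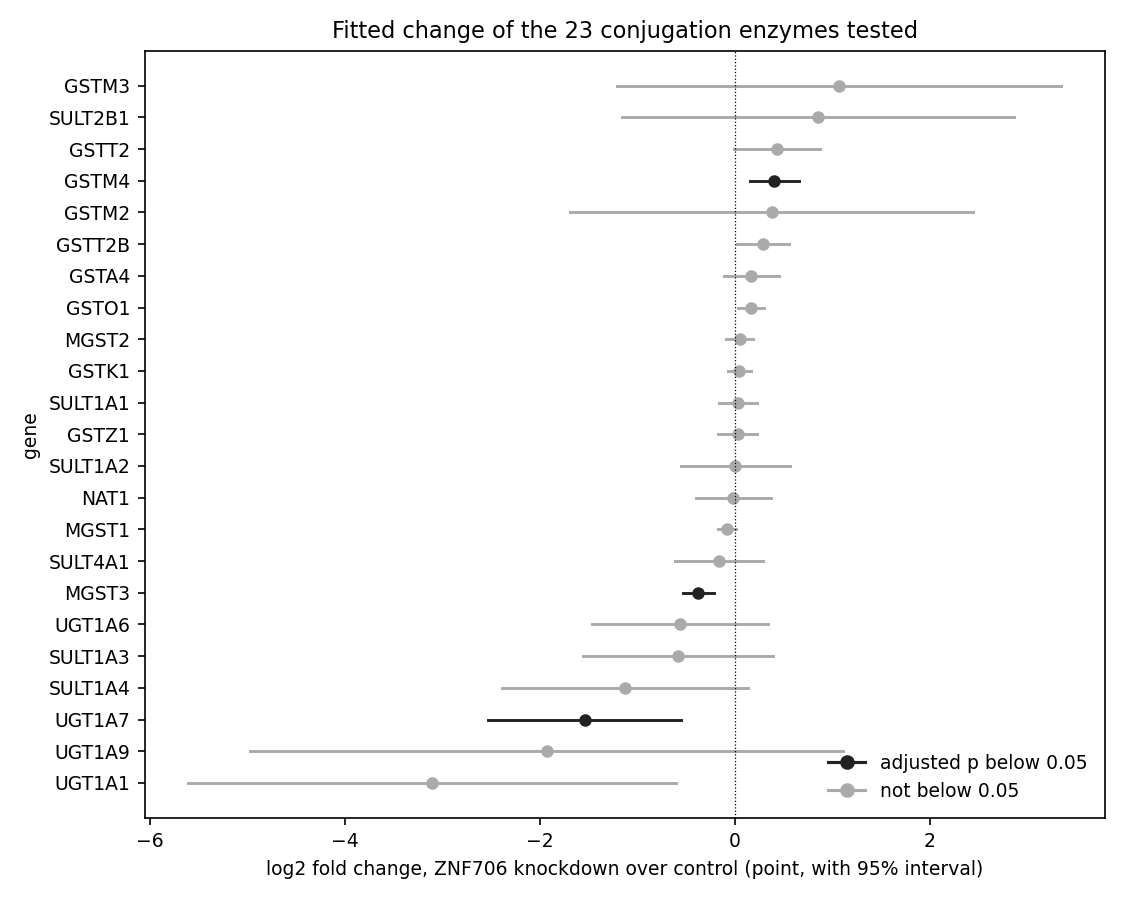
Fitted log2 fold change of each of the 23 tested conjugation enzymes (knockdown over control, edgeR), with its 95% interval as a bar. Black points mark GSTM4, MGST3 and UGT1A7, whose adjusted p was below 0.05, and the widest intervals belong to UGT1A9 and UGT1A1.

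Microsomal glutathione transferases are small membrane enzymes that conjugate glutathione and reduce lipid hydroperoxides. MGST3 lies at chr1:165631213-165661796 (GRCh38, plus strand). Its CPM was 157, 165 and 167 in the controls and 111, 126 and 139 in the knockdown samples. Every knockdown sample was below every control. The means were 163 ± 5.39 and 125 ± 14.3 (SD, n = 3 in each group), and the log2 fold change was -0.38 (SE 0.071, adjusted p = 0.0044 by edgeR), so the fitted level fell by 23.03%. MGST3 was called in each of the 6 fits that left out 1 sample, with log2 fold changes from -0.46 to -0.29, and in all 9 other settings tried. No 100-base stretch of its transcripts occurs in another gene of the GENCODE release 29 annotation.

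MGST1, the most abundant of the 44 enzymes, gave no such difference. Its FPKM was 44.3, 46.4 and 46.7 in the controls and 42.6, 45.3 and 46.2 in the knockdown samples, and its log2 fold change was -0.084 with a 95% interval from -0.18 to 0.01 (adjusted p = 0.18, edgeR). MGST2, which can also form leukotriene C4, stood at 10.04, 10.2 and 10.04 FPKM in the controls and at 9.94, 10.8 and 11.6 FPKM in the knockdown samples (log2 fold change 0.047, interval -0.09 to 0.18, adjusted p = 0.64, edgeR). Of the 3 MGSTs, MGST3 alone therefore passed the test, and a difference in change between the 3 genes was not tested.

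**Figure D2:**
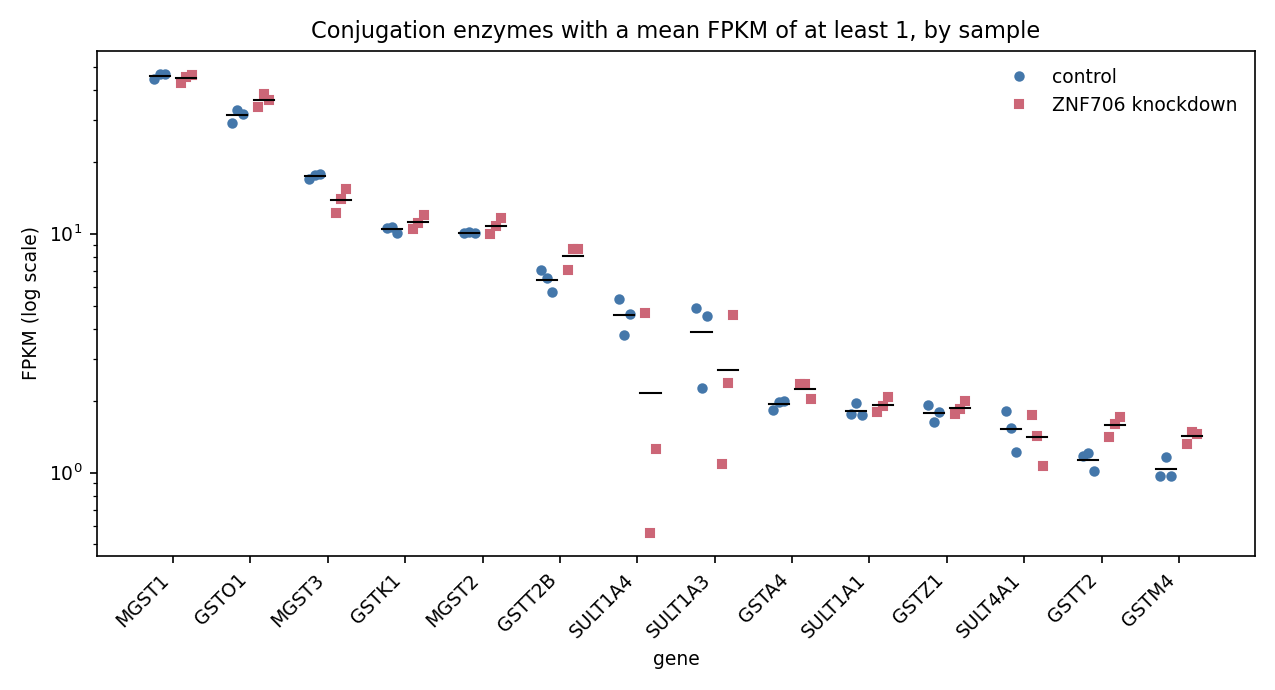
FPKM of the 14 conjugation enzymes with a mean of at least 1 FPKM, on a log axis, with 1 point per sample and a line at each group mean. MGST1 and GSTO1 stand highest, the knockdown points of MGST3 lie below its controls, those of GSTM4, GSTT2, GSTT2B, GSTO1 and GSTA4 lie above on this scale, and SULT1A3 and SULT1A4 spread widely within a group.

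Among the cytosolic GSTs, the mu class gave the one rise. GSTM4 lies at chr1:109656099-109674836 (GRCh38, plus strand) beside its paralogs. Its counts were 397, 494 and 401 in the controls and 600, 638 and 656 in the knockdown samples, and the groups did not overlap. In CPM the means were 6.91 ± 0.752 and 9.15 ± 0.517 (SD, n = 3 in each group), and the log2 fold change was 0.41 (SE 0.11, adjusted p = 0.029 by edgeR), a rise of 32.4%. The call held without control 2 or knockdown 1. It was lost without control 1 (0.35, adjusted p = 0.098), control 3 (0.36, adjusted p = 0.11), knockdown 2 (0.38, adjusted p = 0.11) or knockdown 3 (0.39, adjusted p = 0.083), by edgeR in each. With no filter on low counts, GSTM4 also lost the call (0.40, adjusted p = 0.067, edgeR). Of its 100-base stretches, 7.11% also occur in other genes, mainly GSTM2 and GSTM5. The other mu genes contributed little, since GSTM1, a gene absent from many human genomes, had at most 11 counts in any sample and GSTM2 at most 30. The sum of GSTM4, GSTM2 and GSTM1 gave a log2 fold change of 0.40 (adjusted p = 0.021, edgeR), and its call was lost without control 1, control 3, knockdown 2 or knockdown 3 (adjusted p = 0.073, 0.087, 0.077 and 0.067, edgeR).

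GSTO1, an omega-class enzyme with thioltransferase and dehydroascorbate reductase activity, was the most abundant cytosolic member. Its FPKM was 29.2, 32.9 and 31.7 in the controls and 34.02, 38.3 and 36.3 in the knockdown samples. In CPM knockdown 1 stood at 64.5, just under control 2 at 64.6, so the groups overlapped on that scale. The log2 fold change was 0.16 (SE 0.058, adjusted p = 0.073, edgeR). DESeq2 gave an adjusted p of 0.041, and GSTO1 passed in 5 of the 9 other settings but in 1 of the 6 fits leaving out a sample (adjusted p from 0.043 to 0.25, edgeR). Without control 1 its log2 fold change was 0.11 (adjusted p = 0.23, edgeR). GSTK1, the mitochondrial and peroxisomal kappa enzyme, had 10.6, 10.6 and 10.1 FPKM in the controls and 10.5, 11.1 and 11.9 FPKM in the knockdown samples (log2 fold change 0.044, interval -0.07 to 0.16, adjusted p = 0.61, edgeR). GSTZ1, which also isomerizes maleylacetoacetate in tyrosine breakdown, had a log2 fold change of 0.029 (interval -0.17 to 0.23, adjusted p = 0.86, edgeR).

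The theta genes GSTT2 and GSTT2B are near copies of each other on chromosome 22, and 67.3% of the 100-base stretches of GSTT2 occur in GSTT2B. Their summed counts were 653, 642 and 540 in the controls and 748, 858 and 914 in the knockdown samples. These groups did not overlap, yet the log2 fold change of 0.31 missed the threshold (SE 0.11, adjusted p = 0.080, edgeR), and it passed only without knockdown 1 among the 6 fits leaving out a sample (0.40, adjusted p = 0.042, edgeR). The alpha class, abundant in normal liver, was almost silent apart from GSTA4, which detoxifies 4-hydroxyalkenals. GSTA1 had no count and GSTA2 at most 7. GSTA4 had 275, 307 and 303 counts in the controls and 391, 373 and 336 in the knockdown samples, with a log2 fold change of 0.17 (interval -0.12 to 0.45, adjusted p = 0.40, edgeR). GSTP1, the pi-class enzyme left out by the naming rule, had a higher FPKM than any member. It stood at 51.2 ± 2.10 FPKM in the controls and 53.8 ± 3.96 FPKM in the knockdown samples (SD, n = 3 in each group), and the groups overlapped. In mean CPM, which is not scaled to gene length, the order differed. GSTP1 had 105 in the controls and 107 in the knockdown samples, under MGST1 (395 and 373) and MGST3 (163 and 125). The log2 fold change of GSTP1 was 0.024 (interval -0.10 to 0.15, adjusted p = 0.82, edgeR).

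The UGT1A genes share one locus on chromosome 2, in which each enzyme has its own first exon joined to the same 4 following exons. For UGT1A7, 735 of 1590 coding bases (46.2%) come from the shared exons and 855 from exon 1. The first exons of UGT1A7 and UGT1A9 are themselves close, identical at 789 of 855 positions (92.3%). Their first 120 coding bases in GRCh38 (plus strand) are shown with the 11 positions that differ in capitals, followed by the whole of exon 2, from which reads fit all 7 UGT1A rows alike.
UGT1A7, chr2:233681938-233682057: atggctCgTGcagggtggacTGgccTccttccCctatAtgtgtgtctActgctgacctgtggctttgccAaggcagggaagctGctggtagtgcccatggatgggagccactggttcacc
UGT1A9, chr2:233671935-233672054: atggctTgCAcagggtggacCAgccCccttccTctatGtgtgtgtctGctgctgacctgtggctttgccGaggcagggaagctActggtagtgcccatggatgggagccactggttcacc
UGT1A exon 2, chr2:233767034-233767165: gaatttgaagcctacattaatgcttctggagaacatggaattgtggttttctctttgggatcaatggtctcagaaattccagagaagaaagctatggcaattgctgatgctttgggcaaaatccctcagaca

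UGT1A7, which glucuronidates phenols and is known chiefly from outside the liver, fell in the knockdown samples. The row spans chr2:233681938-233773299 (GRCh38, plus strand). Its counts were 163, 94 and 170 in the controls and 61, 80 and 21 in the knockdown samples, so all 3 knockdown values lay under the lowest control. In CPM the means were 2.29 ± 0.709 and 0.788 ± 0.452 (SD, n = 3 in each group), and the log2 fold change was -1.54 (SE 0.44, adjusted p = 0.032, edgeR), so the fitted level fell by 65.6%, with values below 1 FPKM in every sample. The call was lost without control 1 (-1.43, adjusted p = 0.087), control 3 (-1.39, adjusted p = 0.11) or knockdown 1 (-1.62, adjusted p = 0.072), by edgeR in each. With no filter on low counts, UGT1A7 also lost the call (-1.54, adjusted p = 0.12, edgeR).

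The neighbouring rows did not move evenly, and reads of the shared exons could have been given to any of them. UGT1A9 had 254, 0 and 45 counts in the controls and 51, 36 and 0 in the knockdown samples. Both groups held a sample at 0 (log2 fold change -1.93, interval -4.97 to 1.11, adjusted p = 0.36, edgeR), and without control 1 the sign turned to 0.20. UGT1A6, an enzyme of small planar phenols, had 86, 48 and 61 counts against 25, 60 and 61 (adjusted p = 0.37, edgeR).

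UGT1A1, the bilirubin-conjugating enzyme, had 22, 13 and 14 counts in the controls and 0, 0 and 6 in the knockdown samples. The groups did not overlap, but UGT1A1 missed the threshold (log2 fold change -3.11, interval -5.61 to -0.61, adjusted p = 0.074, edgeR). UGT1A1 passed the filter on low counts through the controls alone, so no fall is read from these values. Summed over the 7 UGT1A rows, the counts were 529, 155 and 290 in the controls and 147, 176 and 88 in the knockdown samples. The groups overlapped, since knockdown 2 stood above control 2. The sum gave a log2 fold change of -1.39 (SE 0.41, adjusted p = 0.036, edgeR). Control 1 carried much of it, with -0.85 (adjusted p = 0.14, edgeR) when that sample was left out, and of the 6 fits leaving out a sample only that without control 2 kept the call (-1.74, adjusted p = 0.012, edgeR). UGT1A7 took 30.8%, 60.6% and 58.6% of the UGT1A counts in the controls and 41.5%, 45.5% and 23.9% in the knockdown samples, and those shares overlapped.

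The remaining glucuronosyltransferases were at or near 0. The 7 UGT2 rows, which include the hepatic steroid and opioid conjugating enzymes UGT2B7, UGT2B15 and UGT2B17, had at most 17 counts in any sample, the highest in UGT2A3 in control 1. None was tested, and no difference was detectable at this depth. UGT8, the ceramide galactosyltransferase, had at most 7 counts.

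The catecholamine sulfotransferases SULT1A3 and SULT1A4 are a duplicated gene pair on chromosome 16, with coding sequences identical over all 885 bases. Of their 100-base stretches, 80.4% (SULT1A3) and 95.3% (SULT1A4) occur in another gene, including the read-through rows SLX1A-SULT1A3 and SLX1B-SULT1A4. SULT1A4 had 741, 542 and 647 counts in the controls and 712, 83 and 196 in the knockdown samples. SULT1A3 had 891, 428 and 836 counts against 222, 458 and 926. Within the knockdown group the CPM was 4.73 ± 4.76 for SULT1A4 and 7.74 ± 5.10 for SULT1A3 (SD, n = 3), and a sample low in one was not always low in the other. Neither passed the test (SULT1A4 log2 fold change -1.13, adjusted p = 0.19, and SULT1A3 -0.58, adjusted p = 0.40, edgeR). Single samples set the size of both. SULT1A4 gave -2.35 without knockdown 1 (adjusted p = 0.0020) and -0.67 without knockdown 2 (adjusted p = 0.36), and SULT1A3 gave -0.21 without knockdown 1 (adjusted p = 0.76) and -1.21 without knockdown 3 (adjusted p = 0.059), by edgeR.

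How the copies were combined changed the result. The sum of the 4 SULT1A rows fell, with a log2 fold change of -0.35 (SE 0.11, adjusted p = 0.047, edgeR), although its groups overlapped and 4 of 6 fits leaving out a sample, those without control 1, control 3, knockdown 1 or knockdown 2, lost the call (adjusted p up to 0.16, without knockdown 2, edgeR). SLX1A-SULT1A3 had 504, 1470 and 412 counts in the controls against 1171, 1222 and 1300 in the knockdown samples (log2 fold change 0.49, adjusted p = 0.40, edgeR). SLX1B-SULT1A4 had 672, 1254 and 771 counts against 1255, 1641 and 1445 (log2 fold change 0.55, adjusted p = 0.081, edgeR). Neither read-through row passed the test, and the groups overlapped in CPM for both. Summed over SULT1A3, SULT1A4 and both read-through rows, the counts were 2808, 3694 and 2666 in the controls and 3360, 3404 and 3867 in the knockdown samples. This sum gave a log2 fold change of 0.067 (SE 0.10, adjusted p = 0.69, edgeR).

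**Figure D3:**
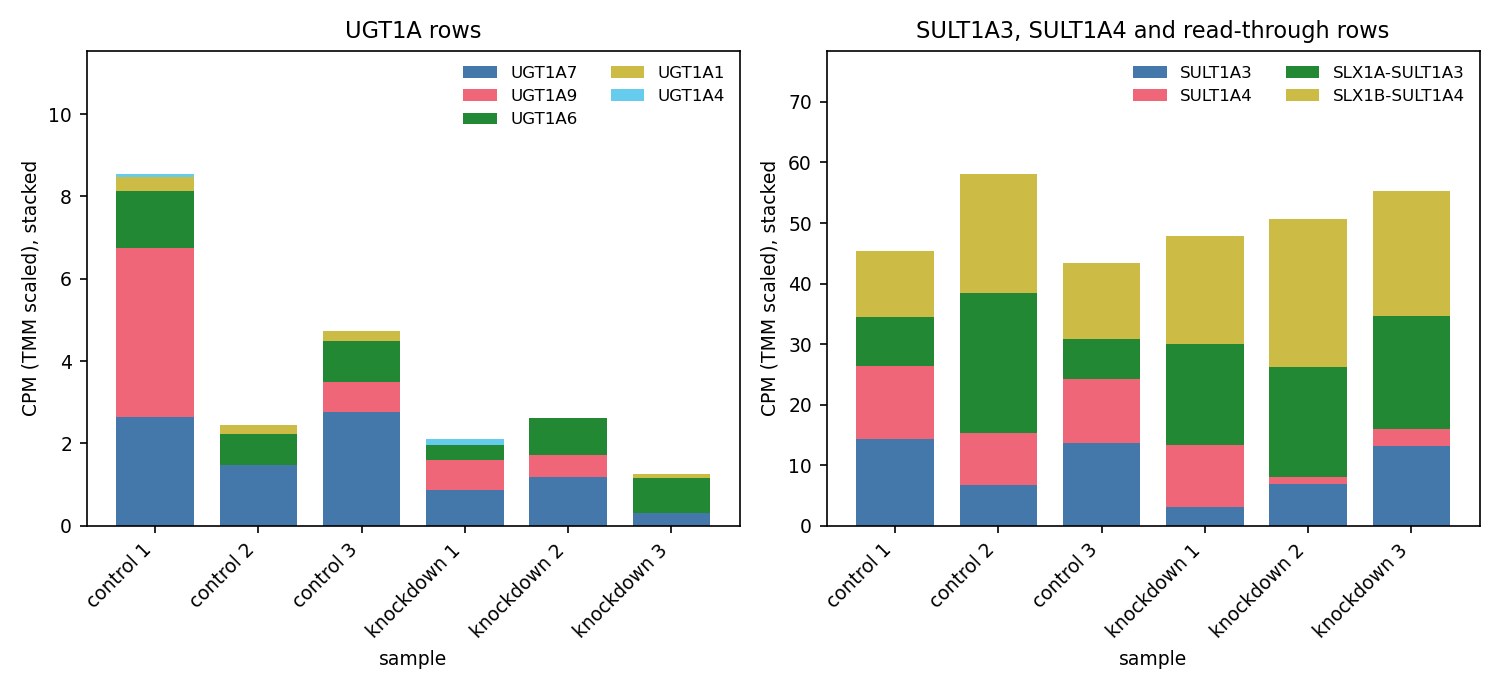
Stacked CPM of the rows that share sequence, by sample, with the UGT1A rows on the left and SULT1A3, SULT1A4 and their read-through rows on the right. UGT1A9 fills much of control 1 and is at 0 in control 2 and knockdown 3, while on the right the split between rows differs between samples more than the stacked total does.

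SULT1A1, the main phenol sulfotransferase of adult liver, stood at 1.75, 1.96 and 1.74 FPKM in the controls and 1.79, 1.89 and 2.07 FPKM in the knockdown samples (log2 fold change 0.031, interval -0.16 to 0.22, adjusted p = 0.84, edgeR). SULT4A1, a brain sulfotransferase with no well-defined substrate, had 371, 324 and 252 counts against 392, 307 and 240, and the groups overlapped (log2 fold change -0.16, interval -0.61 to 0.29, adjusted p = 0.63, edgeR). SULT2A1, the hepatic dehydroepiandrosterone sulfotransferase, had at most 24 counts. SULT2B1, which sulfates cholesterol, had at most 28 (adjusted p = 0.56, edgeR). The arylamine acetyltransferase NAT1 had 203, 224 and 164 counts in the controls and 239, 217 and 191 in the knockdown samples (log2 fold change -0.016, interval -0.40 to 0.37, adjusted p = 0.96, edgeR), and NAT2, the hepatic and intestinal form, had no count.

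Promoter sequence from RefSeq (GRCh38.p14, 250 bases before to 50 after the start) was matched for 33 of the 44 members and searched on both strands for 4 motifs. The core of the xenobiotic response element, GCGTG, was present in 36.4% of the members' promoters and in 36.3% of all 27305 promoters. The antioxidant response element core TGACNNNGC was in 18.2% against 13.6%, the HNF1 core GTTAAT in 18.2% against 6.89%, and the HNF4 sequence CAAAGTCCA in none of the 33 against 0.359%. The promoters of the 3 members that passed the test are printed, and each of them carries the first of these, with GCGTG or its reverse complement CACGC in capitals, at 93 (GSTM4), 72 (MGST3) and 63 (UGT1A7) bases before the start. A match describes the letters only.
GSTM4, chr1:109655849-109656148 (plus): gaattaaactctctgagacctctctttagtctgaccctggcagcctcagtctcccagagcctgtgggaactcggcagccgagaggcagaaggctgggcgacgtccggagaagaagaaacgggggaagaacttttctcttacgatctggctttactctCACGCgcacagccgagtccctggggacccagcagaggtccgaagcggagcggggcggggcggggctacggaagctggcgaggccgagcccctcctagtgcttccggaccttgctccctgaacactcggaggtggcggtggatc
MGST3, chr1:165630984-165631283 (plus): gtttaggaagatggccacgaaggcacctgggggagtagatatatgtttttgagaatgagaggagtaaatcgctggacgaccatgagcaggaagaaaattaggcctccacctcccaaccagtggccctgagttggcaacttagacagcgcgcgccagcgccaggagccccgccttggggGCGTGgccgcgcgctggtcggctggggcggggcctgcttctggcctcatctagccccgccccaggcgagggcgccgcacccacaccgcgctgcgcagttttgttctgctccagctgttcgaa
UGT1A7, chr2:233681651-233681950 (plus): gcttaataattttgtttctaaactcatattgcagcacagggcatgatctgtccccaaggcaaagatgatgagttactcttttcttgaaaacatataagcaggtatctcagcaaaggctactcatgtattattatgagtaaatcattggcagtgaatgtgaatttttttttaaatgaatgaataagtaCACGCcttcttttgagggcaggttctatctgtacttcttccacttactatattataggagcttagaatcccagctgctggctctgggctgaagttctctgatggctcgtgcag

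Genes that supply, regulate or follow these enzymes were described from 10 lists, which held 111 genes in all. Of these, 103 were in the table and 86 were tested, and 29 passed (33.7%, against 22.8% of all genes tested), 10 of them rises and 19 falls. The median log2 fold change over the 86 was -0.020.

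The supply of glucuronic acid held the highest share of calls, 5 of 8 tested (62.5%), with a median log2 fold change of -0.14. Over all genes tested, 12.4% fell and 10.4% rose. SLC35D1, which carries UDP-glucuronic acid into the endoplasmic reticulum, fell from a mean of 49.8 ± 2.50 CPM to one of 39.2 ± 1.48 (SD, n = 3 in each group; log2 fold change -0.34, adjusted p = 0.0015, edgeR). UGP2, which makes UDP-glucose, fell by 0.27 on the log2 scale, UGDH, which oxidizes it to UDP-glucuronic acid, by 0.23, and the lysosomal β-glucuronidase GUSB by 0.24 (adjusted p = 0.00052, 0.017 and 0.0037, edgeR). The nucleotide sugar carrier SLC35D2 rose by 0.39 (adjusted p = 0.011, edgeR). Genes of this list thus went in both directions, with 4 lower and 1 higher.

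Sulfate and PAPS genes were called for 5 of 10 tested, where 22.8% of all genes tested were called. The PAPS carrier SLC35B3 (0.49), the sulfate transporter SLC26A2 (0.38) and BPNT1 (0.22), which clears the PAP left by sulfation, rose, with adjusted p = 0.0051, 0.0011 and 0.012 by edgeR. Steroid sulfatase STS, which removes sulfate from steroids, fell from a mean of 57.9 ± 2.34 CPM to one of 41.2 ± 2.52 (SD, n = 3 in each group; log2 fold change -0.49, adjusted p = 0.00031, edgeR), and the Golgi PAP phosphatase BPNT2 fell by 0.28 (adjusted p = 0.00034, edgeR). In glutathione supply, none rose and 3 of 9 tested fell (33.3%, against 12.4% of all genes tested). These were the glutathione-degrading CHAC1 (-0.70), the cystine transporter SLC7A11 (-0.29) and glutathione reductase GSR (-0.21), with adjusted p = 0.032, 0.017 and 0.0023 by edgeR.

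In the mercapturic acid path, which trims glutathione conjugates, none fell and 2 of 5 tested rose (40.0%, against 10.4% of all genes tested). The rises were the deacylase ACY1, from a mean of 35.7 ± 2.67 CPM to one of 50.6 ± 2.48 (SD, n = 3 in each group; log2 fold change 0.50, adjusted p = 0.000555, edgeR), and the aminopeptidase ANPEP (0.15, adjusted p = 0.035, edgeR). In acetyl-CoA supply 2 of 4 rose, the citrate carrier SLC25A1 (0.32) and ATP citrate lyase ACLY (0.15), with adjusted p = 0.0013 and 0.036 by edgeR. Among methyl and acyl conjugation enzymes 3 of 9 passed (33.3%, against 22.8% of all genes tested), 2 higher and 1 lower. The bile acid CoA ligase SLC27A5 (0.63) was among the rises, and nicotinamide N-methyltransferase NNMT (-0.20) fell, with adjusted p = 0.0040 and 0.0063 by edgeR.

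The list of other glutathione transferases and related proteins, with GSTP1, the CLIC genes and EEF1G among them, gave no rise and 2 falls in 8 tested (25.0%, where 12.4% of all genes tested fell). The falls were in CLIC4 (-0.32) and the prostaglandin E synthase PTGES (-0.14), a relative of the MGSTs. Of 8 export genes tested, ABCC3 (-0.36) and ABCC4 (-0.33) fell, also 25.0% against 12.4% of all genes tested. Of 6 epoxide and quinone enzymes 2 fell (33.3%, against 12.4% of all genes tested), microsomal epoxide hydrolase EPHX1 (-0.55) and the quinone reductase NQO1 (-0.19). EPHX1 went from a mean of 36.3 ± 2.60 CPM to one of 24.8 ± 0.790 (SD, n = 3 in each group; adjusted p = 0.00052, edgeR). Of 19 regulators tested, none rose and 3 fell (15.8%, against 12.4% of all genes tested). They were BACH1 (-0.39), a repressor at antioxidant response elements, the xenobiotic receptor AHR (-0.27) and the small MAF protein MAFG (-0.16), with adjusted p = 0.00026, 0.013 and 0.017 by edgeR.

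**Figure D4:**
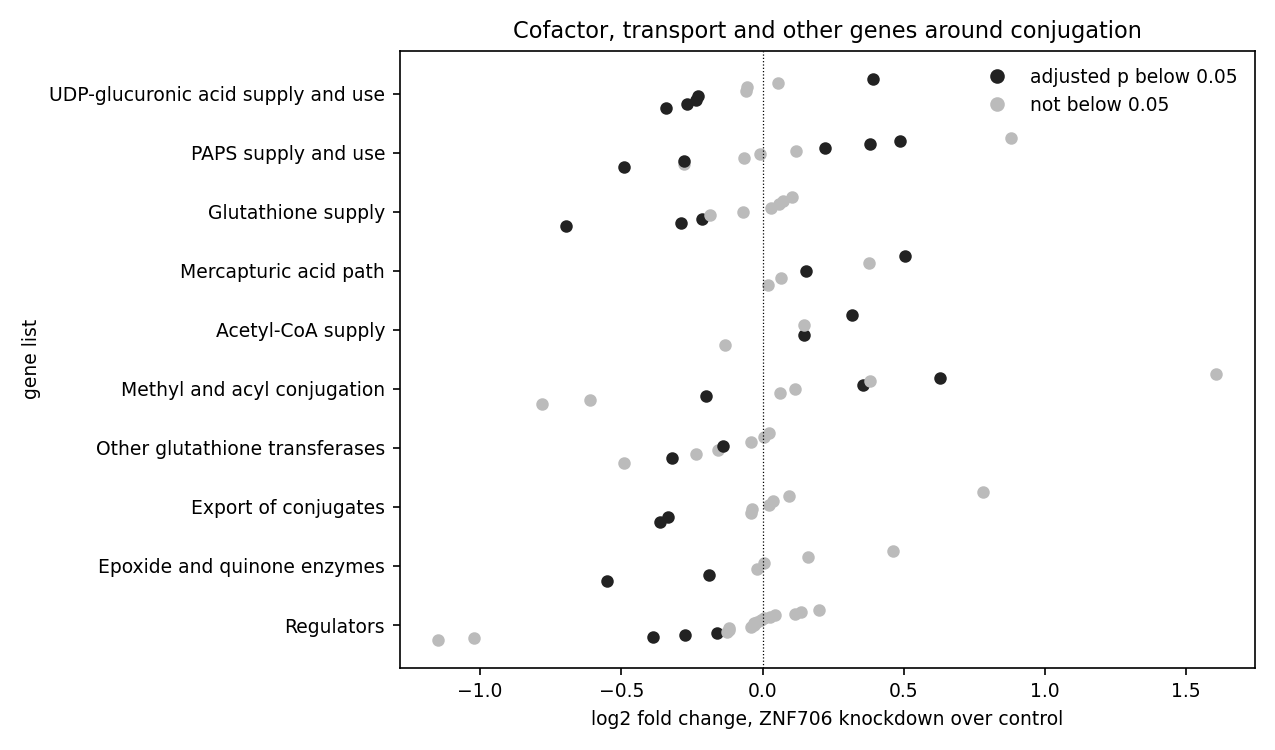
Log2 fold change (knockdown over control, edgeR) of the 86 tested genes around conjugation, by list, with 1 point per gene and black for an adjusted p below 0.05. The black points are 10 rises and 19 falls, with rises alone in the mercapturic acid and acetyl-CoA lists and falls alone in the glutathione supply, other transferase, export, epoxide and quinone, and regulator lists.

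Markers of other cell types and measures of RNA were compared for the same samples. Of 5 leukocyte markers in the table, CD68, also a lysosomal protein, was the most abundant and rose, from a mean of 10.6 to 17.1 FPKM (log2 fold change 0.64, adjusted p = 0.00011, edgeR), and it carried the list's summed FPKM of 10.99, 10.9 and 11.3 in the controls and 16.9, 18.2 and 16.7 in the knockdown samples. The pan-leukocyte PTPRC had at most 8 counts in any sample and HBB at most 4. Of 6 fibroblast markers COL1A1 was the most abundant, at 7.05 and 8.40 FPKM, and it rose (0.20), as did PDGFRB (0.68), with adjusted p = 0.0023 and 0.0030 by edgeR. The log2 fold changes of LUM (-1.26, adjusted p = 0.12), COL3A1 (-2.04, adjusted p = 0.34) and DCN (-0.039, adjusted p = 0.97) lay below 0 in the same test. The list's summed FPKM, most of it from COL1A1, stood at 9.41, 7.90 and 8.33 in the controls and 9.85, 10.1 and 9.61 in the knockdown samples, and DCN had at most 49 counts. Of 4 endothelial markers CDH5 led and fell (log2 fold change -0.70, adjusted p = 0.0014, edgeR), while PECAM1 gave 0.15 (adjusted p = 0.54, edgeR), with list sums of 1.79, 1.91 and 2.09 against 1.45, 1.62 and 1.71 FPKM and VWF at 20 counts or fewer. Of 3 intestinal markers, VIL1 led and none was called, with list sums of 0.130 to 0.310 FPKM in the controls and 0.0800 to 0.160 FPKM in the knockdown samples. Of the 11 hepatocyte markers 2 were called lower, APOB and SERPINA1, where 12.4% of all genes tested were called lower. The list's summed FPKM ran from 456 to 489 in the controls and from 454 to 471 in the knockdown samples, nearly all of it from KRT18 and KRT8. The 9 markers other than KRT18 and KRT8 all had a fitted log2 fold change below 0, from -0.056 (TTR) to -1.95 (APOA1), with SERPINA1 at -1.47 (adjusted p = 0.0034), APOB at -0.98 (adjusted p = 0.021), HNF4A at -1.15 (adjusted p = 0.13) and ALB at -0.67 (adjusted p = 0.48), by edgeR. Among these 9 the groups overlapped for all but APOB and SERPINA1, and TTR had at most 18 counts. Mitochondrially encoded genes took 5.40%, 5.19% and 5.40% of counts in the controls and 5.03%, 5.02% and 4.79% in the knockdown samples. The 20 genes with the highest counts summed over all samples took 8.94% to 9.08% in the controls and 8.60% to 8.75% in the knockdown samples. The part of these shifts in the differences among the conjugation enzymes was not tested.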

How the data were processed

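Per the labels and methods, RNA was sequenced on an Illumina NovaSeq. Reads were trimmed with cutadapt 1.9, checked with FastQC and mapped with HISAT2 to GRCh38. The counting program, strand setting and annotation are not given in the sources used here. The authors deposited 1 table with whole-number counts and FPKM values per gene and sample, the FPKM being scaled by the authors to gene length and library size. Its annotation columns were not used as results. From the counts, genes were filtered (filterByExpr), scaled by TMM and tested with edgeR 4.0.16 in R 4.3.3 (glmQLFit, glmQLFTest, group as the only term), with Benjamini-Hochberg adjustment over 18390 genes. The SE is the absolute log2 fold change over the square root of F, and intervals are 95%. A count of 0 allows up to 3 counts, which covers counting error only. The fit was tested on simulated counts. Sequence shared between genes was measured in 100-base windows of GENCODE release 29 transcripts.

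The members and lists were chosen with earlier results of these data known. Named were ZNF706, members with an adjusted p below 0.05, the 2 most abundant members of each subfamily, GSTP1 and, per list, up to 3 called genes. Some results under this rule are not reported here. Other genes named were chosen after their values were seen. Alternatives were DESeq2 1.42.0, its size factors, library size alone, no low-count filter, a minimum mean count of 50, a GC correction, the replicate number as a block, limma 3.58.1 on log2(FPKM + 0.1) or log2(FPKM + 1) for genes with a mean of at least 1 FPKM, and leaving out each sample. The sum with read-through rows was added after seeing the data. Samples of a group differed beyond sampling noise (chi-square per gene 12.8 to 22.2), so all were kept as separate samples.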

Additional observations from a re-analysis of the deposited data

How the results depend on the processing

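ZNF706 and MGST3 kept their direction and call in every alternative run. The number of genes called was 4192, and from 2648 (without knockdown 2) to 3424 when 1 sample was left out. DESeq2 called 4416 of the 15515 genes that it gave an adjusted p, which included 19 members. Library size alone called 4260 of 18390 genes, no filter 2990 of 31319 and limma on log2(FPKM + 1) 3835 of 11399. Conjugation enzymes called higher were 1 (GSTM4), 2 with DESeq2, with library size alone and with the replicate block (GSTO1 added in each), 0 without a filter, 4 by limma on log2(FPKM + 0.1) and 4 on log2(FPKM + 1) (GSTO1, GSTT2 and GSTT2B added), and 0 to 2 with 1 sample left out. Those called lower were 2, and 1 (MGST3) without a filter and by either limma fit, where UGT1A7 was under the FPKM minimum, and 1 to 3 with 1 sample left out. The replicate block called 4361 genes and added SULT1A4 to the falls (-1.58, adjusted p = 0.026, edgeR). Same-numbered samples correlated at 0.075, -0.0086 and 0.081 in their deviations from the group means, not every sample correlated best with its own number, and the numbers were not taken as pairs. The direction turned for the members' median (-0.050 to 0.040 with 1 sample left out) and for 5 genes and 1 sum, none of which passed the test in any setting run. NAT1 gave 0.038 with library size alone and 0.069 with the GC correction, and ranged from -0.13 to 0.073 with 1 sample left out. GSTP1 gave -0.050 with the GC correction and -0.026 to 0.081 with 1 sample left out. With 1 sample left out, GSTK1 ranged from -0.0081 to 0.088, SULT4A1 from -0.34 to 0.0059, UGT1A9 from -2.59 to 0.20 and the SULT1A3, SULT1A4 and read-through sum from -0.015 to 0.21. The cause of these turns was not tested. Depth limits the UGT2 rows, GSTA1, GSTA2 and SULT2A1, whose counts were too low to be tested.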
